A study of Mus musculus with 7 samples.

Results

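MiR-140 and miR-455 are hairpin precursors that each give a 5p and a 3p mature miRNA, and the 4 arms made from them are described here out of 696 mouse miRNAs on the array. The arms were picked by name, under the names the scanner software gives them. The deposited table calls the arms of miR-140 miR-140 (5p) and miR-140* (3p), and these names are used below. The table of normalized log2 values holds 252 mouse miRNAs, those detected on all arrays, and 2 of the 4 arms are among them, miR-140 and miR-140*. Both arms of miR-455 were read from the scanner output alone.

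The cells came from soft tissue sarcomas of p53 knocked out mice (53KOSTS), so every group, controls included, lacks p53. Control primary cells carried a Non-target shRNA and were profiled on 2 arrays. Rb-depleted primary cells carried an shRNA against Rb, the retinoblastoma tumour suppressor gene, and were profiled on 2 arrays, while Rb-depleted secondary cells, retrieved from spheres grown in serum-free methylcellulose and returned to monolayer culture, were profiled on 3 arrays. All cells had been selected with puromycin, and 1 Rb shRNA was used. No array of sphere-derived control cells was analysed here, so in the secondary cells the effects of Rb depletion and of passage through spheres cannot be told apart. The series' design text speaks of 2 or 3 independent experiments per condition, and does not say whether cells were transduced anew for each. If they were not, p-values measure only the spread between these arrays. MiRNA arrays hold no probe for Rb mRNA, so the depletion itself could not be checked in these files.

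MiRNAs are short RNAs that bind mRNAs by their seed, the bases near the 5′ end, and lower the stability or translation of their targets. MiR-140 is best known from cartilage, where it is one of the most typical miRNAs of chondrocytes, is activated by the transcription factor Sox9 and restrains cartilage-degrading proteases such as Adamts5. Its gene lies in an intron of Wwp2, which encodes an E3 ubiquitin ligase. MiR-455 is a second miRNA enriched in chondrocytes, and its gene lies in an intron of Col27a1, which encodes a fibrillar collagen of cartilage.

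In the NCBIM37 build, Mir140 spans 70 bases of chromosome 8, 110075144 to 110075213, on the plus strand. It lies in intron 16 of a Wwp2 transcript with 24 exons, 1108 bases after the preceding exon and 963 bases before the next. The mature miR-140* maps to 110075188 to 110075208 within it. Mir455 spans 82 bases of chromosome 4, 62917885 to 62917966, also on the plus strand, in intron 10 of a Col27a1 transcript with 61 exons. The preceding exon ends 2109 bases before the hairpin and the next begins 127 bases after it. MiR-455-5p maps to 62917901 to 62917922 and miR-455-3p to 62917938 to 62917958. None of the annotated host transcripts that span either hairpin has an exon over it (0 of 3 for Wwp2 and 0 of 4 for Col27a1), and both hairpins lie on the strand of their host.

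Of the 4 arms, 3 were matched in the RefSeq table of mature miRNAs (build GRCm38.p6). The sequences are shown because the seed, bases 2 to 8 in capitals, sets which other miRNAs could share targets with an arm.
miR-140*: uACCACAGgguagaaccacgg
miR-455-5p: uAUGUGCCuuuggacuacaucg
miR-455-3p: gCAGUCCAcgggcauauacac
The 3 seeds differ from each other. Among 1679 mature mouse miRNA names in that table, the seed of miR-140* was shared with miR-497b alone, that of miR-455-5p with miR-5129-3p alone and that of miR-455-3p with 0 others. Neither miR-497b nor miR-5129-3p is on the array, so no seed relative of these 3 arms was measured.

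A 1-colour array gives brightness in intensity units. Each arm was measured by 2 probes of 10 spots each, and the scanner software reports a total gene signal for each miRNA. Tested on all 4872 pairs of a mouse miRNA and an array, a miRNA was called detected exactly where the signal of at least 1 probe was over 3 times its error, and the total gene signal was 0.1 wherever it was not. In 1958 of 1958 detected pairs the total gene signal was, within 1%, the sum of only those probes that were over 3 times their error. Of the spots for the 4 arms, 0 of 560 were saturated and 19 carried an outlier flag. Probes of different sequence capture RNA with different efficiency, so the level of 1 arm was not compared with that of another. Differences between arms and places by brightness are given for their change between arrays. The number of arrays limits the precision of every value.

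The cells expressed the miRNAs usual in mesenchymal cells. All 8 mesenchymal markers (among them miR-199a-3p, miR-214 and miR-143) were detected on all arrays, with a summed total gene signal of 79426 to 85813 in control primary cells, 67758 to 78257 in Rb-depleted primary cells and 73166 to 87220 in Rb-depleted secondary cells. Most of each sum was miR-21 alone, at 63169 to 68672, 55322 to 63758 and 56801 to 69912 in the same groups. Of 7 epithelial and 4 haematopoietic markers, 0 were detected on any array. Of 4 skeletal muscle markers, 1 was detected, miR-206, at 46.3 to 47.0 in control primary cells, 27.8 to 43.8 in Rb-depleted primary cells and 12.9 to 36.4 in secondary cells. Of 2 endothelial markers, miR-126-3p was detected at 7.02 to 10.73 in primary cells and not in secondary cells, and of 7 pluripotent markers miR-290-5p was detected in control primary cells alone, at 10.0 and 16.2. In total gene signal, before normalization, miR-126-3p, miR-206 and miR-290-5p were thus highest where miR-140 was highest, in control primary cells. Such an order was common before normalization. Of the 252 miRNAs in the deposited table, 57.9% in Rb-depleted primary cells and 68.7% in secondary cells lay wholly below the control arrays. After normalization miR-206 was no longer highest in control primary cells. Its log2 values of 5.18 and 5.29 in control primary cells lay below the 5.32 of Rb-depleted primary replicate 1 and secondary replicate 2. They lay above the 4.93, 4.17 and 3.86 of the remaining Rb-depleted cells. The part of these miRNAs in the results below was not tested.

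Both arms of miR-140 were brighter in control primary cells than in either kind of Rb-depleted cells. Before normalization, the total gene signal of miR-140 was 966 and 993 on the control primary arrays, 584 and 494 on the Rb-depleted primary arrays, and 573, 652 and 514 on the secondary arrays. All 5 arrays of Rb-depleted cells lay below both control arrays, and the primary and secondary Rb-depleted cells overlapped. The means were 980 ± 18.6 (SD, n = 2), 539 ± 63.9 (SD, n = 2) and 580 ± 69.3 (SD, n = 3), or 55.0% and 59.2% of control cells for the primary and secondary Rb-depleted cells.

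MiR-140*, the opposite strand of the same duplex, had a total gene signal of 1241 and 1215 on the control arrays, 838 and 718 on the Rb-depleted primary arrays, and 622, 767 and 571 on the secondary arrays. Again all arrays of Rb-depleted cells lay below the control arrays, with overlap between primary and secondary Rb-depleted cells. The means were 1228 ± 18.3 (SD, n = 2), 778 ± 84.6 (SD, n = 2) and 653 ± 102 (SD, n = 3), or 63.3% and 53.2% of control cells. Such a separation was common in the values before normalization, since 57.9% of the 252 miRNAs in Rb-depleted primary cells and 68.7% in secondary cells lay wholly below the control arrays. The median miRNA itself had log2 changes of -0.26 and -0.46, and the normalized values below are relative to that shift.

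**Figure D1:**
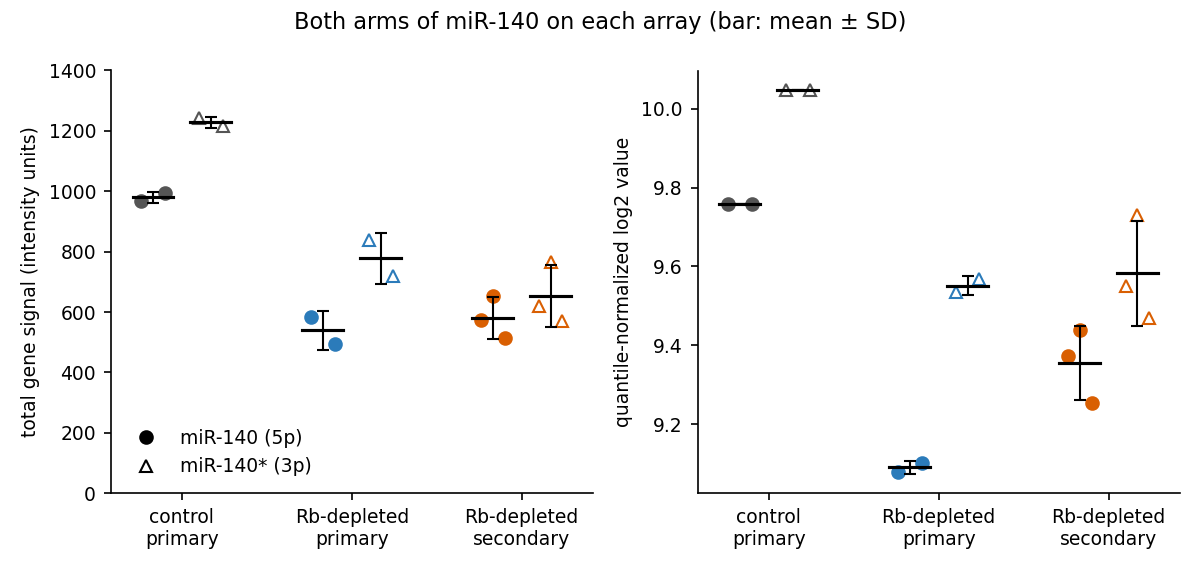
Total gene signal before normalization (left, intensity units, axis from 0) and quantile-normalized log2 value (right) of miR-140 (filled circles) and miR-140* (open triangles) on each array, with the mean and SD of each group. Every array of Rb-depleted cells lies below both control arrays for both arms, and in the log2 values miR-140 is lowest in Rb-depleted primary cells, at 9.08 and 9.10.

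The deposited log2 value of miR-140 after quantile normalization was 9.76 on both control arrays, 9.08 and 9.10 on the Rb-depleted primary arrays, and 9.37, 9.44 and 9.25 on the secondary arrays. The 3 groups did not overlap, with control cells highest and Rb-depleted primary cells lowest. The equal values of the control arrays come from the normalization, since their total gene signals differ. Among the 252 miRNAs ordered by brightness, miR-140 stood at places 56 and 57 in control cells, 75 and 74 on the Rb-depleted primary arrays and 69, 67 and 71 on the secondary arrays.

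The log2 value of miR-140* was 10.05 on both control arrays, 9.53 and 9.57 on the Rb-depleted primary arrays, and 9.55, 9.73 and 9.47 on the secondary arrays. Control cells were again highest without overlap, while the values of secondary cells spanned those of Rb-depleted primary cells. Its place by brightness was 50 and 51 in control cells, 63 and 61 on the Rb-depleted primary arrays and 63, 57 and 65 on the secondary arrays. After normalization, 26.6% of the 252 miRNAs in Rb-depleted primary cells and 22.2% in secondary cells lay below the control arrays without overlap.

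The first comparison asks which miRNAs differ once Rb is depleted in monolayer culture. By limma with Benjamini-Hochberg adjustment over the 252 miRNAs, miR-140 was lower in Rb-depleted primary than in control primary cells (log2 fold change -0.67, SE 0.089, adjusted p = 0.0432), where 1.59% of the miRNAs passed the threshold of 0.05 in either direction and 1.19% were lower. The change of miR-140* was -0.50 (SE 0.11) with an adjusted p of 0.102 by limma, over the threshold. In order from the most lowered of the 252 miRNAs, miR-140 was at place 15 and miR-140* at place 34, and the median change of all was 0.0082. An exact permutation test on the arrays of these 2 groups cannot go below p = 0.333, which both arms reached. The call of miR-140 rested on single arrays, since by limma its adjusted p was 0.201 without control primary replicate 1, 0.137 without control primary replicate 2, 0.174 without Rb-depleted primary replicate 2, 0.0713 without Rb-depleted secondary replicate 1 and 0.0996 without replicate 3, while its change ran from -0.68 to -0.66. The call of miR-140* went the other way, to an adjusted limma p of 0.0362 without Rb-depleted secondary replicate 2. The change of miR-140 was -0.63 under 75th percentile scaling (adjusted p = 0.103 by limma), and with slide as a term its adjusted limma p was 0.0713. All arrays in this comparison lay on 1 slide.

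The second comparison asks which miRNAs differ in the sphere-derived cells. In Rb-depleted secondary cells both arms fell relative to control primary cells by limma, miR-140 with a log2 fold change of -0.40 (SE 0.081, adjusted p = 0.0259) and miR-140* with -0.47 (SE 0.097, adjusted p = 0.0288). In this comparison 22.6% of the 252 miRNAs passed in either direction and 9.52% were lower, and the arms stood at places 44 and 39 from the most lowered. An exact permutation test gave p = 0.1 for each arm, two-sided and the smallest that 2 against 3 arrays allow. Without control primary replicate 1, control primary replicate 2, Rb-depleted secondary replicate 1 and Rb-depleted secondary replicate 3 the adjusted limma p rose to 0.135, 0.102, 0.0609 and 0.0609 for miR-140 and to 0.145, 0.115, 0.0724 and 0.0655 for miR-140*. Replicates 2 and 3 of the secondary cells lay on a second slide. With slide as a term in the model the changes were -0.39 (adjusted p = 0.124 by limma) and -0.50 (adjusted p = 0.112), so neither arm passed, and under 75th percentile scaling they were -0.31 (adjusted p = 0.140 by limma) and -0.47 (adjusted p = 0.0650).

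**Figure D2:**
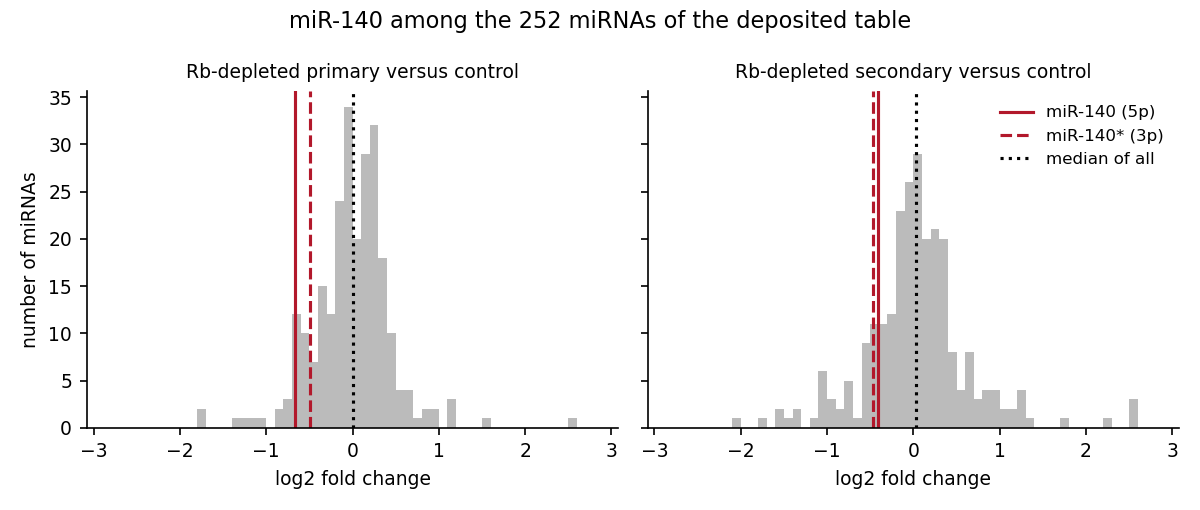
Number of miRNAs (vertical axis) by log2 fold change relative to control primary cells (horizontal axis, bins of 0.1) for the 252 miRNAs of the deposited table, in Rb-depleted primary (left) and Rb-depleted secondary cells (right). The red lines at -0.67 (solid, miR-140) and -0.50 (dashed, miR-140*) on the left and at -0.40 and -0.47 on the right lie below the median of all miRNAs (dotted).

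The selection used in the study's methods takes miRNAs past an F-test over the 3 groups at an adjusted p of 0.1 and then asks for Dunnett's test against control cells to pass in both comparisons, in the same direction. Here both steps used limma's estimates of spread, where the study used one-way analysis of variance. The miRNAs selected here, and their number, need not be those of the study. MiR-140 had an adjusted F-test p of 0.0170 in limma and Dunnett p-values of 7.2e-04 in Rb-depleted primary and 0.00541 in secondary cells. MiR-140* had an adjusted F-test p of 0.0397 in limma and Dunnett p-values of 0.0072 and 0.0064. Both arms were thus selected in this limma version, as were 6.75% of the 252 miRNAs, 4.37% in the lower direction, and 43.3% passed the F-test alone. MiR-140 was also selected under 12 of 14 other settings and miR-140* under 10 of 14. The exceptions were 75th percentile scaling for miR-140, the replicate block for both, and for miR-140* also slide as a term and leaving out control primary replicate 1 or 2, where its adjusted F-test p was 0.1502 and 0.1327.

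Between the 2 kinds of Rb-depleted cells, miR-140 was 0.26 higher on the log2 scale in secondary cells (SE 0.081) with an adjusted p of 0.0702 by limma, over the threshold that 20.2% of the miRNAs passed, 12.7% in the higher direction. The groups did not overlap, as was so for 27.0% of the miRNAs in that direction. MiR-140* differed by 0.031 (SE 0.097, adjusted p = 0.852 by limma), and the sign of this difference changed without normalization (-0.26), under 75th percentile scaling (-0.042), with slide as a term (-0.0014) and without Rb-depleted secondary replicate 2 (-0.042). Without normalization the difference of miR-140 was 0.10.

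**Figure D3:**
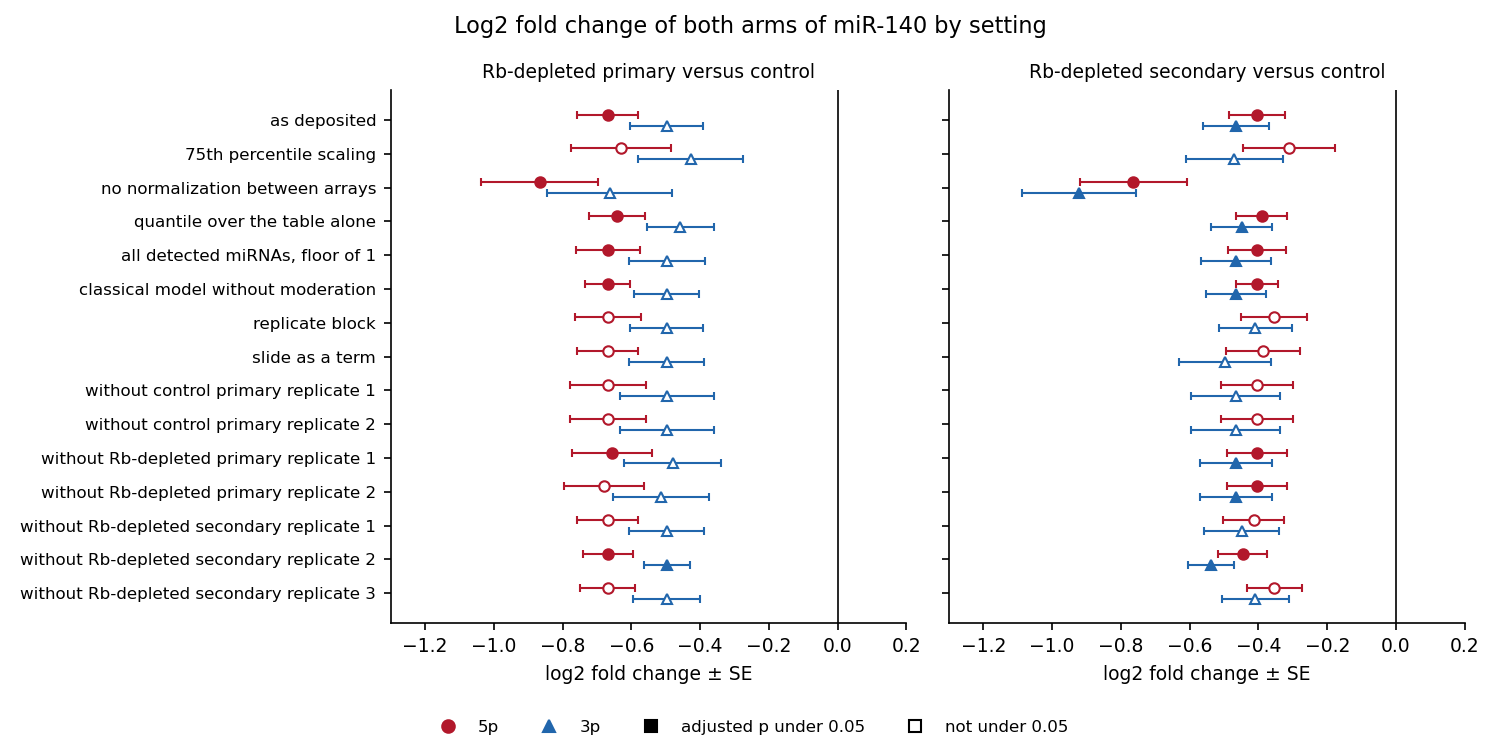
Log2 fold change with its SE (horizontal axis) of miR-140 (red circles) and miR-140* (blue triangles) relative to control primary cells, for each normalization, model or left-out array (vertical axis), with filled symbols where the adjusted p was under 0.05 by limma. All changes are below 0, between -0.92 and -0.31, and the filled symbols are fewer for miR-140* in Rb-depleted primary cells than for the other 3 series.

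Control cells were also brightest at the level of single spots. For the brighter probe of miR-140, the medians of 10 spots were 788 and 833 for control cells, 474 and 403 on the Rb-depleted primary arrays, and 476, 528 and 412 on the secondary arrays. The second probe had medians of 675 and 710 in control cells, 398 and 337 on the Rb-depleted primary arrays, and 386, 451 and 373 on the secondary arrays. On the log2 scale and before normalization between arrays, the group means of these medians differed from control cells by -0.89 and -0.92 for the 2 probes in Rb-depleted primary cells and by -0.79 and -0.78 in secondary cells, so the 2 probes of miR-140 gave nearly equal changes.

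For the brighter probe of miR-140*, the medians were 1335 and 1310 in control cells, 905 and 797 on the Rb-depleted primary arrays, and 696, 874 and 629 on the secondary arrays. For the second probe they were 549 and 546, then 348 and 306, then 266, 303 and 227. The changes from control cells were -0.64 and -0.74 on the Rb-depleted primary arrays and -0.87 and -1.05 in secondary cells, again before normalization. For 3 of the 4 probes of miR-140 and miR-140*, all 20 spots of Rb-depleted primary cells and all 30 spots of secondary cells lay below all 20 control spots. The exception was the second probe of miR-140, where 1 control spot with an outlier flag read 266. Without flagged spots, 20 of 20 Rb-depleted primary spots and 23 of 28 secondary spots lay below all 19 control spots. These signals were not normalized between arrays. In total gene signal before normalization, 57.9% of the 252 miRNAs in Rb-depleted primary cells and 68.7% in secondary cells lay wholly below the control arrays. How many probes of other miRNAs separated by spot was not counted. Spots of 1 array share an RNA preparation and are not replicates of a condition, so no test was made over them.

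**Figure D4:**
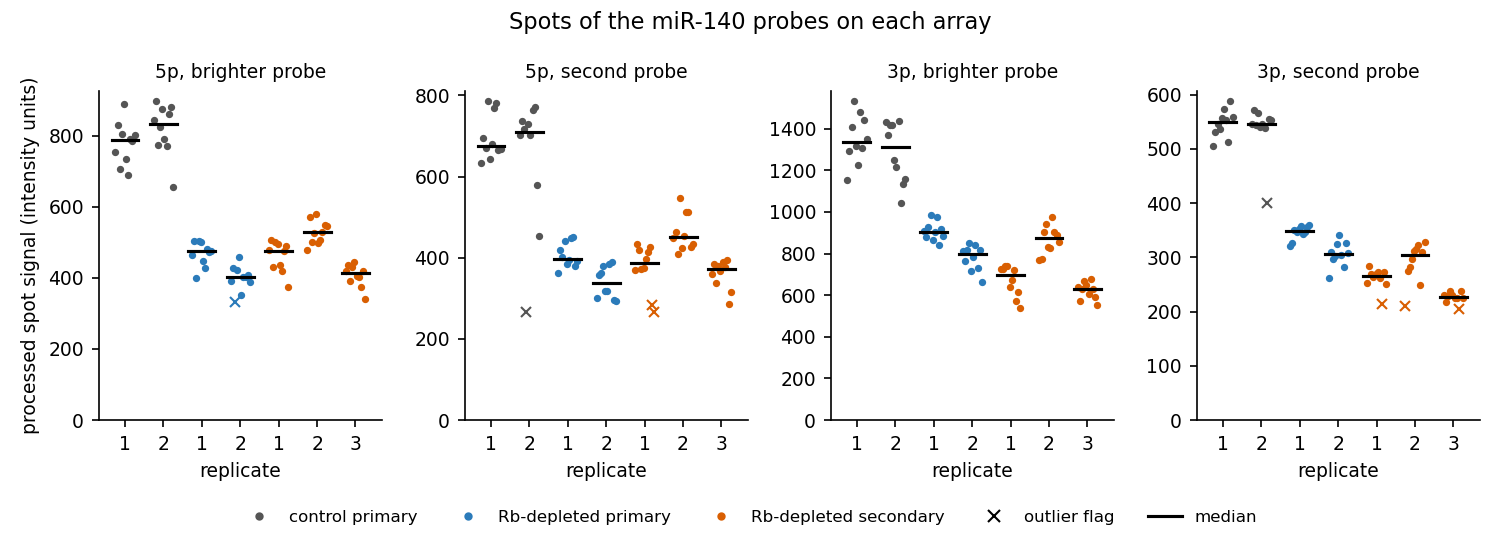
Processed signal of each spot (vertical axis, intensity units from 0, a separate scale in each panel) for the 2 probes of miR-140 (5p) and the 2 of miR-140* (3p), by replicate (horizontal axis) and group (colour), with crosses for spots with an outlier flag and black lines for medians. The control spots lie above those of both kinds of Rb-depleted cells in every panel apart from 1 flagged spot at 266, and a few secondary-cell spots that overlap the lowest control spots in the second panel.

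A difference between the arms within an array is free of any single scaling factor, but quantile normalization is not such a factor and can change it. The deposited log2 value of miR-140 minus that of miR-140* was -0.29 on both control arrays, -0.46 and -0.47 on the Rb-depleted primary arrays, and -0.18, -0.29 and -0.21 on the secondary arrays. The difference was lowest on the arrays of Rb-depleted primary cells, without overlap, and secondary cells lay around or above the control value. The shift from control cells was -0.17 for Rb-depleted primary cells by a two-sided exact permutation test (p = 0.333, the smallest possible). In secondary cells the shift was 0.061 (exact permutation test, two-sided, p = 0.4). Without normalization the difference was -0.36 and -0.29 on the control arrays and -0.52 and -0.54 on the Rb-depleted primary arrays. On the secondary arrays it was then -0.12, -0.23 and -0.15, above both control arrays. The shifts without normalization were -0.20 and 0.16 (exact permutation test, two-sided, p = 0.333 and p = 0.2). With the median spot of the brighter probe of each arm they were -0.25 and 0.079.

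The miRNAs of the table were then ordered by how closely their log2 values, relative to their own control mean, followed those of each arm over the 7 arrays, with the root mean square difference as the measure. The 5 closest to miR-140 were miR-337-3p (0.069), miR-140* (0.10), miR-382 (0.11), miR-541 (0.14) and miR-127 (0.14), against a median of 0.56 over the other miRNAs. The 5 closest to miR-140* were miR-382 (0.10), miR-140 (0.10), miR-337-3p (0.12), miR-409-3p (0.12) and miR-541 (0.15), against a median of 0.52. Each arm was thus the second closest to its partner.

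MiR-337-3p had log2 values of 7.05 on both control arrays, 6.51 and 6.34 on the Rb-depleted primary arrays and 6.70, 6.70 and 6.62 on the secondary arrays. By limma it fell in both comparisons, with log2 fold changes of -0.62 (SE 0.091, adjusted p = 0.0432) and -0.37 (SE 0.083, adjusted p = 0.0323). The adjusted limma p in the 2 comparisons was 0.201 and 0.151 without control primary replicate 1, 0.137 and 0.115 without control primary replicate 2, 0.0713 and 0.0722 without Rb-depleted secondary replicate 1, and 0.0996 and 0.0882 without replicate 3. In primary cells it was also 0.174 by limma without Rb-depleted primary replicate 2. Leaving out Rb-depleted primary replicate 1 or Rb-depleted secondary replicate 2 left both calls in place. Both calls of miR-337-3p were also lost under 75th percentile scaling (adjusted limma p 0.103 and 0.140), with slide as a term (0.0713 and 0.126) and with the replicate block (0.229 and 0.156). MiR-409-3p passed in secondary cells alone, with a log2 fold change of -0.56 (SE 0.14, adjusted p = 0.0402 by limma). The other close miRNAs, miR-382, miR-541 and miR-127, had changes between -0.58 and -0.32 and passed neither comparison. These miRNAs were picked for following the arms over the same arrays, so their direction was fixed by the choice.

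MiR-455-3p was close to the limit of detection. It was detected on neither control array (0 of 2), on 1 of the 2 Rb-depleted primary arrays, at a total gene signal of 8.67, and on 3 of 3 secondary arrays, at 11.4, 14.4 and 12.3. The lowest total gene signal of any detected mouse miRNA was 3.38 to 5.37 across arrays, and 258 to 287 miRNAs were detected on an array.

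The brighter of its 2 probes carried all of this total gene signal, since the second probe was at most 1.26 times its error on any array. Detection thus rested on 1 probe. The brighter probe summed to 5.23 and 6.48 for control cells, 8.67 and 6.31 on the Rb-depleted primary arrays, and 11.4, 14.4 and 12.3 on the secondary arrays. Divided by the error of the same probe, this was 1.83 and 2.07, then 3.24 and 2.91, then 3.26, 5.24 and 4.92, so Rb-depleted primary replicate 2 and the control arrays fell short of the ratio of 3 that detection requires. Secondary cells were highest without overlap, and the values of Rb-depleted primary cells spanned the higher control value.

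The median of the 10 spots of that probe was 8.89 and 10.3 in control cells, 13.7 and 9.28 on the Rb-depleted primary arrays, and 18.7, 22.4 and 17.9 on the secondary arrays. Of the 434 negative control spots on each array, the median was 2.98 to 4.27 and the 95th percentile 8.04 to 11.03. The median spot of miR-455-3p was brighter than 93.3% to 94.9% of these spots on the control arrays, 98.6% and 96.5% on the Rb-depleted primary arrays, and 98.4% to 100% on the secondary arrays. The control signal lay near the upper edge of background, so no fold against it is given. Of 30 spots of secondary cells 28 were above all 20 control spots, as were 5 of 20 spots of Rb-depleted primary cells, and without flagged spots the count in secondary cells was 25 of 27. Spots of 1 array are not replicates of a condition, and how many probes of other miRNAs separated so was not counted. The second probe was dimmer, with a summed signal of 0.40 and 0.36 in control cells, 0.50 and 0.25 on the Rb-depleted primary arrays, and 1.17, 1.85 and 2.76 on the secondary arrays. For this probe 0 of 30 spots of secondary cells were above all 20 control spots, and without flagged spots 3 of 30 were above all 19.

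**Figure D5:**
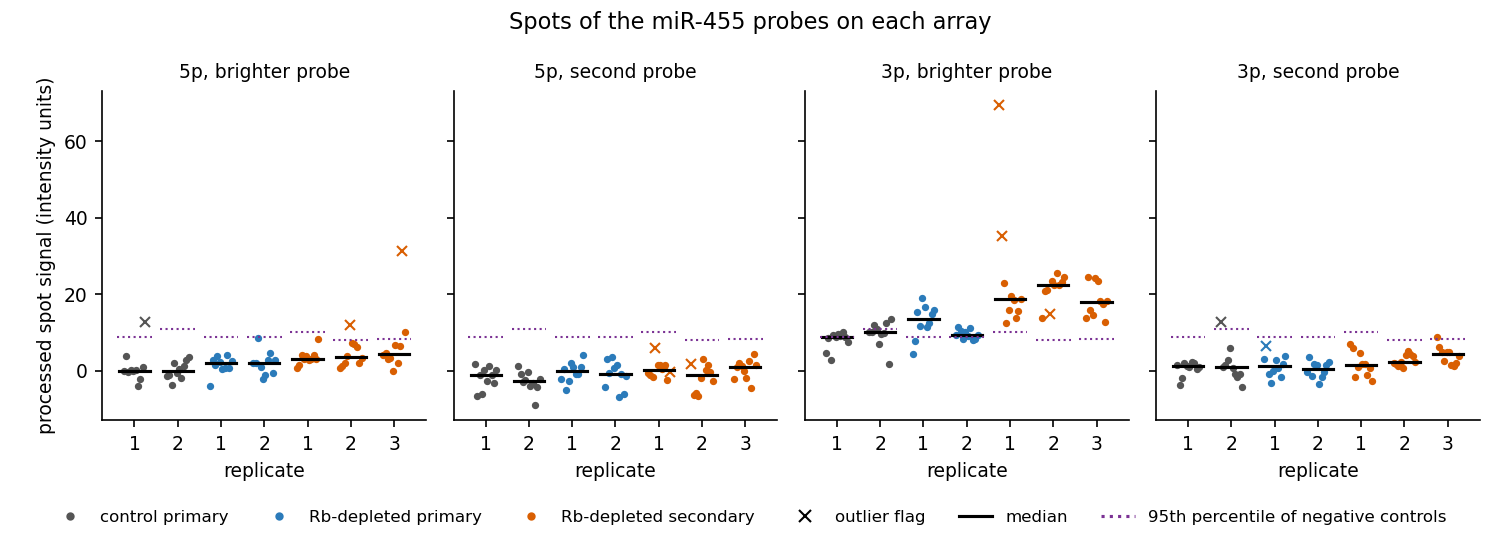
Processed signal of each spot (vertical axis, intensity units, the same scale in all panels) for the 2 probes of miR-455-5p and the 2 of miR-455-3p, by replicate (horizontal axis) and group (colour), with crosses for spots with an outlier flag, black lines for medians and dotted lines for the 95th percentile of the negative control spots of each array. In the brighter probe of miR-455-3p the medians of 18.7, 22.4 and 17.9 on the secondary arrays and of 13.7 and 9.28 on the Rb-depleted primary arrays lie above the dotted lines, and in the other 3 panels the medians lie below them on every array.

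To test miR-455-3p, the total gene signal was floored at 1, quantile-normalized in the way of the deposited table and fitted over the 312 mouse miRNAs detected on at least 1 array. MiR-455-3p entered this fit through its detection on arrays of Rb-depleted cells alone, and its values on both control arrays are the floor, so its call there is given as a description. The log2 difference between Rb-depleted secondary and control primary cells was 3.98 (SE 0.70, adjusted p = 0.0211 by limma), where 17.6% of the miRNAs passed in either direction and 7.69% were higher. Fitted over all 696 mouse miRNAs, with no filter on detection, the same difference had an adjusted p of 0.0652 by limma (SE 0.75), over the threshold that 4.31% passed. Its size depended on the floor, since with a floor of 5 and the filter it was 1.66 (SE 0.20, adjusted p = 0.00923 by limma). In Rb-depleted primary cells it was 1.203 (SE 0.77, adjusted p = 0.399 by limma), where 2.56% of the miRNAs passed and 0.321% were higher. That value rested on the single array that detected it, and was 0 without Rb-depleted primary replicate 1 and 2.40 without replicate 2. The call in secondary cells was lost without control primary replicate 1 (adjusted p = 0.121 by limma), control primary replicate 2 (0.110), Rb-depleted secondary replicate 1 (0.0621) or replicate 3 (0.0681), and with slide as a term (3.89, adjusted p = 0.108).

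In a setting that was added once the data had been seen, the signal summed over a miRNA's probes replaced the total gene signal for every mouse miRNA, detected or not, again with a floor of 1. On this scale miR-455-3p had 5.63 and 6.84 on the control arrays, 9.18 and 6.57 on the Rb-depleted primary arrays and 12.61, 16.29 and 15.08 on the secondary arrays. Before log transformation and normalization, secondary cells averaged 14.7 and control cells 6.23, a difference of 8.43 intensity units, while Rb-depleted primary cells averaged 7.87, a difference of 1.64 (exact permutation test, two-sided, p = 0.1 for secondary cells, the smallest possible, and p = 0.667 for primary cells). After quantile normalization and over all 696 mouse miRNAs, the log2 differences from control cells were 1.79 in secondary cells (SE 0.21, adjusted p = 0.0296 by limma) and 0.80 in Rb-depleted primary cells (SE 0.23, adjusted p = 0.283 by limma), where 6.03% and 1.87% passed. These are differences from a signal that was not called detected and are not folds of the miRNA. Over the 312 miRNAs detected on at least 1 array, which miR-455-3p joined as above, the adjusted limma p was 0.0054 and 0.112, where 26.0% and 2.24% passed. Secondary cells were 1.00 higher than Rb-depleted primary cells on that log2 scale. The adjusted p of this difference was 0.0911 by limma over all mouse miRNAs, where 3.30% passed, and 0.0205 over the 312, where 21.8% passed. Among the 444 mouse miRNAs outside the deposited table, 3.15% had a summed probe signal in secondary cells above both control arrays without overlap, and 6.53% lay above both arrays of Rb-depleted primary cells.

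MiR-455-5p, the opposite strand, was detected on 0 of 7 arrays. Its brighter probe had a summed signal of -0.071 and 0.14 on the control arrays, 1.06 and 1.36 on the Rb-depleted primary arrays, and 2.34, 2.48 and 3.06 on the secondary arrays, values that were at most 1.39 times their error. Negative values arise where background subtraction exceeds the spot. The second probe lay between -1.82 and 0.31 on all arrays. Summed over both probes, miR-455-5p averaged -1.42 ± 0.36 (SD, n = 2), 0.80 ± 0.17 (SD, n = 2) and 2.27 ± 1.12 (SD, n = 3) in the 3 groups.

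The 3 groups of miR-455-5p did not overlap and stood in the order control, Rb-depleted primary and Rb-depleted secondary cells. Of the 384 mouse miRNAs detected on no array, 4 (1.04%) showed this order without overlap, and 6.77% and 2.86% lay wholly above the control arrays on the primary and the secondary Rb-depleted arrays. The exact permutation tests gave p = 0.333 and p = 0.1, two-sided, each the smallest the arrays allow. The median summed probe signal of these undetected miRNAs was -3.78 to -2.43 on the control arrays, -3.72 to -3.30 in Rb-depleted primary cells and -4.33 to -3.45 in secondary cells. The median negative control spot read 2.98 and 3.16 for control cells, 3.86 and 3.52 on the Rb-depleted primary arrays, and 4.27, 3.20 and 3.41 on the secondary arrays. This median was thus higher on all arrays of Rb-depleted cells than on both control arrays, as miR-455-5p was. The 95th percentile of the negative control spots gave no such order. It read 8.91 and 11.03 for control cells and ran from 8.04 to 10.04 over the arrays of Rb-depleted cells. The ranges of the undetected miRNAs also overlapped between the groups. The part of background in the order of miR-455-5p was not tested. At this signal no level of miR-455-5p could be told from background on any array.

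Other miRNAs were read from a list of 29 entries (the cartilage list). Each is described in work on chondrocytes or as acting on Sox9, collagen, TGF-beta or BMP signalling, so many are not particular to cartilage. Of the entries, 27 are on the array, 23 are in the deposited table and 3 were detected on no array. MiR-138 was detected on both control and both Rb-depleted primary arrays but on no secondary array, so it is outside the table. Its total gene signal before normalization was 21.56 and 19.02 on the control arrays and 10.66 and 7.67 on the Rb-depleted primary arrays. The counts and medians below leave miR-138 out, and such a loss of detection cannot appear among their lower miRNAs. Among Rb-depleted primary cells 1 of the 23 passed by limma, miR-337-3p, which was lower, where 1.59% of all 252 passed and 1.19% were lower. The median change of the list was -0.10 against 0.0082 for all miRNAs. In secondary cells 7 were higher and 1 lower by limma, with a median change of 0.17 against 0.032 for all miRNAs, of which 13.1% were higher and 9.52% lower. The 7 were miR-574-3p (log2 fold change 2.56), miR-101a (0.94), miR-181a (0.88), miR-27b (0.66), miR-29b (0.52), miR-130a (0.45) and miR-199a-3p (0.37), with adjusted p-values from 0.0064 to 0.0419, and the 1 lower was again miR-337-3p. MiR-29b is known for acting on collagen mRNAs and miR-101a on the methyltransferase Ezh2, and miR-199a-3p is also one of the mesenchymal markers above. MiR-574-3p was close to the limit of detection and its groups overlapped before normalization. Its total gene signal was 6.40 and 4.85 on the control arrays and 7.07, 4.01 and 10.9 on the secondary arrays. The change of miR-574-3p was 0.73 under 75th percentile scaling and 0.28 without normalization. Without normalization between arrays miR-29b and miR-130a changed sign, to -0.22 and -0.046, the median of the list was -0.17 against -0.46 for all miRNAs, and 0 of the 23 were higher and 9 lower by limma. Under 75th percentile scaling 0 passed in either direction. The count of 7 higher was 0 without control primary replicate 1 and 2 without control primary replicate 2, Rb-depleted secondary replicate 1 or replicate 3, and 0 were then lower, and it was 1 with slide as a term.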

How the data were processed

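MiRNA was measured on 7 1-colour Agilent mouse miRNA arrays. Per the file headers and the study's methods, the authors scanned the arrays, extracted intensities with Agilent Feature Extraction (version 10.7.3.1 in the submitters' processing notes, while the file headers name a later version) and made the deposited log2 values by quantile normalization in GeneSpring. The deposited scanner files hold the intensity of each spot, probe and miRNA, and a deposited 0/1 flag for detection. The 11 rows of control features in the log2 table were set aside. MiRNA names were matched to those of the scanner files by their values over the 7 arrays, which differed by at most 3.24e-06 on the log2 scale for all 252 miRNAs.

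The log2 values were fitted in R 4.3.3 with limma 3.58.1, with a mean for each of 3 groups over all 7 arrays, and adjusted by Benjamini-Hochberg over 252 miRNAs at a threshold of 0.05. For miR-455, the total gene signal with a floor of 1 was quantile-normalized over 718 features and 312 miRNAs were tested. Single values were compared by exact permutation tests over arrays. Scanner files were handled in Python 3.11.15 (pandas 2.3.3, numpy 2.4.6). The procedure was tested on simulated data.

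The alternatives were 75th percentile scaling, no normalization, quantile normalization of the table alone, no filter, a floor of 5, the classical model, the replicate number as a block, slide as a term, the brighter probe alone, the signal summed over probes with and without a filter on detection (both chosen after seeing the data), and each array left out in turn. Where 1 array was left in a group, it was assumed to vary like the other groups. Named beside the members were the 5 miRNAs most like each arm of miR-140, miRNAs sharing a seed, and members of a cartilage list that passed a test against control cells. MiR-138 of that list was named for its loss of detection in secondary cells. Members, lists and tests were chosen with earlier results of these data known. Gene positions are those of GENCODE for NCBIM37.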

Additional observations from a re-analysis of the deposited data

Results flagged for a closer look

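The difference of miR-455-3p between the 2 kinds of Rb-depleted cells, relative to the same control cells, was 0.997 on the log2 scale of the summed probe signal (SE 0.20, adjusted p = 0.0205 by limma), in a fit over the 312 miRNAs detected on at least 1 array, of which 21.8% passed. All 3 arrays of secondary cells lay above both arrays of Rb-depleted primary cells, as was so for 6.53% of the mouse miRNAs outside the deposited table. The difference was flagged because the changes of the 2 groups against control cells differed by a test of the difference itself. That test is therefore a description and no separate support. The summed probe signal was a setting added once the data had been seen. MiR-455-3p joined the 312 miRNAs through its detection on arrays of Rb-depleted cells alone. Over all 696 mouse miRNAs the same difference had an adjusted p of 0.0911 by limma, over the threshold, so the call rested on the filter on detection. With undetected values floored at 1, the difference was 2.78 (adjusted p = 0.0621 by limma), over the threshold.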

How the results depend on the processing

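Both arms of miR-140 had changes below 0 relative to control cells under every setting run, and the calls depended on the setting. Under 75th percentile scaling miR-140 no longer passed in Rb-depleted primary (-0.63) or secondary cells (-0.31), nor did miR-140* in secondary cells (-0.47). The secondary minus primary difference of miR-140* was then -0.042, and 0, 29 and 9 miRNAs were called in primary cells, in secondary cells and in the selection by Dunnett's test, against 4, 57 and 17 as reported. Without normalization these counts were 27, 114 and 42, and the difference of miR-140* was -0.26. With all detected miRNAs and a floor of 1, 8 were called in primary cells. The classical model called 34 in secondary cells, 15 between secondary and primary cells (51 as reported) and 62 in the F-test (109 as reported).

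With slide as a term 0, 6 and 0 miRNAs were called in the 3 comparisons, 24 in the F-test and 5 in the selection. MiR-140 then had -0.67 in primary and -0.39 in secondary cells and miR-140* -0.50 in secondary cells, none past the threshold, with -0.0014 between secondary and primary cells for miR-140*. The replicate numbers of the labels share only a number. The correlations of same-numbered arrays' deviations from their group means were 0.13, 0.074 and 0.044 for replicates 1 and 0.13, -0.084 and -0.14 for replicates 2, and not every array correlated best with its own number. With the replicate block 0, 4 and 0 miRNAs were called in the 3 comparisons, 6 in the F-test and 2 in the selection, with -0.67 and -0.35 for miR-140 in primary and secondary cells, -0.41 for miR-140* in secondary cells and 4.08 for miR-455-3p, none past the threshold. MiR-455-3p in secondary cells was also over the threshold under 75th percentile scaling (3.86), without a filter (3.98) and with slide as a term (3.89). Slide, block and leaving out arrays leave fewer degrees of freedom. The cause of the lost calls was not tested.

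With each array left out in turn, the counts ran from 0 to 22 in primary cells, 1 to 74 in secondary cells and 2 to 66 between them, from 33 to 124 in the F-test and from 6 to 20 in the selection. The change of miR-140 ran from -0.68 to -0.66 in primary and -0.45 to -0.35 in secondary cells, that of miR-140* from -0.51 to -0.48 and -0.54 to -0.41, its secondary minus primary difference from -0.042 to 0.088, and that of miR-455-3p in secondary cells from 3.84 to 4.08. The shift between the arms kept its sign under all settings run. Signal over background limits both arms of miR-455, and neither was called detected on a control array.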
